A study of Solanum lycopersicum var. cerasiforme with 6 samples.

Results

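The 4 genes described here are the C- and D-class MADS-box genes of tomato, TAG1, TAGL1, AGL11 and MBP3, taken by locus number from 34081 rows of read counts. Each has a single row: Solyc02g071730.4 (TAG1, chromosome 2), Solyc07g055920.4 (TAGL1, chromosome 7), Solyc06g064840.4 (MBP3, chromosome 6) and Solyc11g028020.3 (AGL11, chromosome 11). The names were taken with the locus numbers. RefSeq lists each name, TAG1 as a synonym of AG1, on the chromosome that the locus number gives. RNA came from young inflorescences of Solanum lycopersicum var. cerasiforme, cut while the largest floral bud was under 2 mm. The plants were F3 progeny that carried the derived (fw2.3-D) or the wild-type (fw2.3-WT) allele at the fruit weight locus fw2.3, and grew unpruned in one greenhouse. Each library pooled RNA of 2 plants of a genotype, with 3 pools per genotype. F3 plants can still segregate elsewhere in the genome, and a pool of 2 plants averages over few such differences.

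MADS-box proteins of the C class give stamens and carpels their identity and end the activity of the floral meristem. Those of the D class give ovules their identity inside the carpel, and the proteins act in complexes with partners of the SEPALLATA clade. TAG1 is the tomato AGAMOUS gene. TAGL1 belongs to the sister lineage of AGAMOUS and is known in tomato for fruit expansion and ripening. AGL11 and MBP3 are relatives of SEEDSTICK, the ovule identity gene of Arabidopsis, and are known in tomato for expression in ovules, seeds and the tissue around them.

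Pools held 22303511 to 28504360 counts, and 0 counts leave room for a level of 0.105 to 0.135 CPM (counts relative to library size), taking 3 counts per pool as the limit, which covers counting error only. Across genotypes, the pools numbered 1 resembled each other more than any other pair did (chi-square per gene 14.1, against 18.7 to 55.2). Genes of flower identity were present in every pool: the 4 B-class genes, which specify petals and stamens, averaged 75.6 to 149 RPKM (read counts per unit of gene length and library size). Of 4 markers of later organs, 3 were at or near 0. The pollen gene of the list had 5 counts in a single pool and 0 in the others, and 2 of the 3 ripening genes had 0 counts in every pool. The remaining ripening gene was present in every pool, at a mean of 1.81 RPKM.

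The C- and D-class genes stood in one order in 6 of 6 pools, TAG1 above TAGL1 above MBP3 above AGL11. TAG1 averaged 33.7 ± 3.33 RPKM (SD, n = 6 pools), TAGL1 5.55 ± 1.75, MBP3 1.22 ± 0.857 and AGL11 0.294 ± 0.216. TAG1 was above 78.9% of the tested genes in mean RPKM, and TAGL1 above 27.3%. MBP3 was above 8.47%, close to the lower limit of what could be tested. The ranges over pools of neighbours in this order did not overlap between TAG1, TAGL1 and MBP3. Those of MBP3 and AGL11 did, since the lowest pool of MBP3 (0.282 RPKM) was below the highest of AGL11 (0.585 RPKM).

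Within a pool the steps between genes were uneven. TAG1 stood 4.21 to 9.07 times above TAGL1 in RPKM, and TAGL1 stood 1.75 to 14.1 times above MBP3. MBP3 exceeded AGL11 by 3.32 to 5.40 times in 4 pools. In fw2.3-WT replicate 2 the ratio was 1.04, from 5 and 4 counts, which cannot be told apart at this depth. In fw2.3-WT replicate 1 AGL11 had 0 counts. TAG1 alone held 79.5% to 88.8% of the summed RPKM of the 4 genes, and the D-class pair held 1.36% to 8.03%. In RNA of whole inflorescences, fewer cells of a type and less RNA per cell cannot be told apart.

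**Figure D1:**
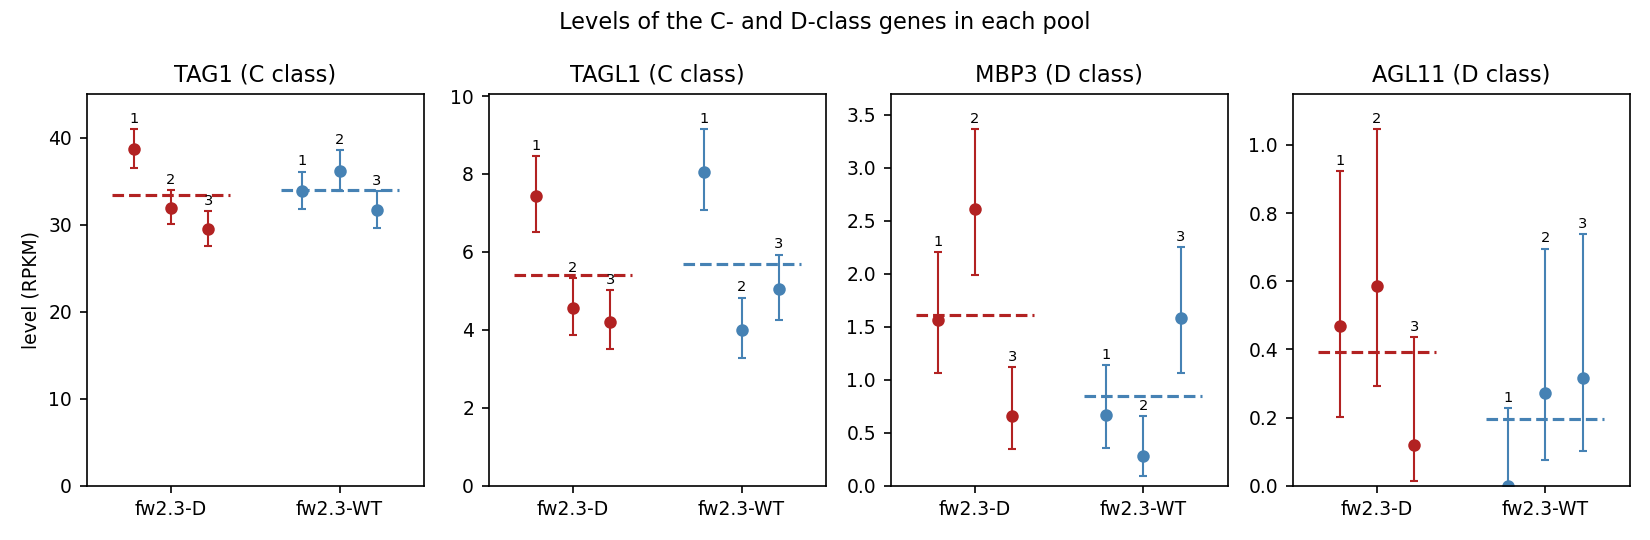
Level in RPKM (linear axis from 0, a separate scale per panel) of the 4 genes in each pool, numbered by replicate, with fw2.3-D in red and fw2.3-WT in blue. Bars are exact 95% Poisson intervals of the counts and cover counting error only, and dashed lines are genotype means. TAGL1 was highest in both first pools, at 7.43 and 8.06 RPKM, and no gene separated the genotypes.

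Among 20 MADS-box genes listed under the A to E classes by locus number, TAG1 ranked 11 in mean RPKM, TAGL1 17, MBP3 18 and AGL11 20. The B-class genes were all above TAG1, and in each pool TAG1 reached 0.271 to 0.324 of their median. The 7 genes of the SEPALLATA and AGL6 clades, which include the partners of C- and D-class proteins, ranged from 0.728 to 133 RPKM. Their lowest member, Solyc05g012020.4, was the only gene outside the C and D classes that ranked below MBP3. It stood apart from the rest of these clades, whose next lowest gene averaged 22.1 RPKM. The 5 genes of the AP1/FUL clade, which act in the floral transition and in sepals, ranged from 5.79 to 99.7 RPKM.

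Carpel and ovule genes of the YABBY family were measured beside the MADS-box genes. The CRABS CLAW type acts in early carpels and nectaries in Arabidopsis, and its 2 tomato loci averaged 21.7 ± 3.58 and 14.0 ± 2.19 RPKM (SD, n = 6 pools). The INNER NO OUTER type acts in the outer integument of the ovule in Arabidopsis. Its locus had 1 count in fw2.3-WT replicate 1 and 0 counts in the other 5 pools. The median tested gene had a mean of 13.1 RPKM. TAG1 was above it in every pool, and TAGL1, MBP3 and AGL11 were below it in every pool. The mean of the lower CRABS CLAW-type locus was above it by less than 1 SD, with pools from 11.4 to 16.9 RPKM.

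**Figure D2:**
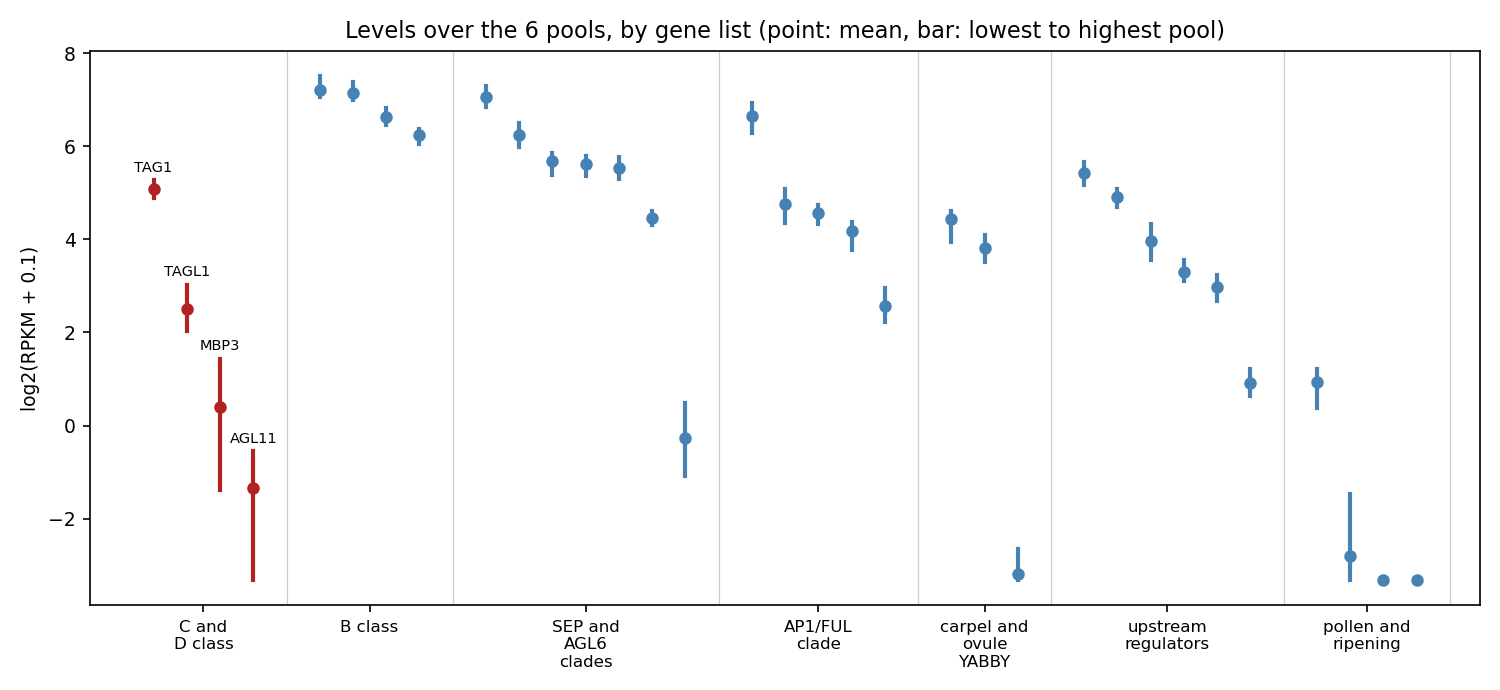
Levels as log2(RPKM + 0.1) of the C- and D-class genes (red) and of 29 genes in 6 other lists (blue), with a point for the mean of 6 pools and a bar from the lowest to the highest pool. TAG1 lies within the ranges of the SEPALLATA and AGL6 list and of the AP1/FUL list, and below the B-class genes. MBP3 and AGL11 lie below all but 1 of the other MADS-box genes, and AGL11 below that one too.

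Between genotypes, none of the 4 genes was called. edgeR's quasi-likelihood test with Benjamini-Hochberg adjustment over 20942 tested genes called 5 (0.0239%) at an adjusted p under 0.05. Of the 4 members, 3 passed the filter on low counts and 0 were called, and no member reached an unadjusted p under 0.05, as 3.56% of tested genes did (0 of 3). DESeq2 also called 0 of the 4, against 0.186% of its genes. The pools of the genotypes overlapped in all 4, where 9.49% of tested genes had no overlap. With so few genes called in all, 0 calls among 3 tested members is near the background share.

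TAG1, the gene with the most reads, had close mean levels in both genotypes, 33.4 ± 4.75 RPKM in fw2.3-D and 34.0 ± 2.24 RPKM in fw2.3-WT (SD, n = 3). It stood at 38.7, 32.0 and 29.5 RPKM in the fw2.3-D pools and at 33.9, 36.2 and 31.7 RPKM in the fw2.3-WT pools, from 856 to 1156 counts. The highest and the lowest pool were both fw2.3-D, and the fw2.3-WT pools lay between them. The log2 fold change, fw2.3-D over fw2.3-WT, was 0.00033 (SE 0.140, edgeR adjusted p = 1.00), and its 95% interval ran from -0.31 to 0.31. As a ratio of the genotypes this is 0.805 to 1.24. An exact permutation test over pools, two-sided, gave p = 1.0, where 0.10 is the smallest p that 10 splits allow. TAG1 lies on chromosome 2, for which fw2.3 is named; its distance from the trait locus was not used here.

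TAGL1 varied more among pools than between genotypes. Its pools stood at 7.43, 4.55 and 4.21 RPKM in fw2.3-D and at 8.06, 3.99 and 5.04 RPKM in fw2.3-WT, from 107 to 238 counts. The first pool of each genotype was high and the other 4 pools were low, with no overlap between these sets and with a mean of 7.75 RPKM against 4.45 RPKM, 1.74 times. The counting intervals of the first pools (lower bounds 6.50 and 7.07 RPKM) did not reach those of the other pools (highest upper bound 5.93 RPKM). This is common in these data, since 21.8% of all tested genes had first pools that did not overlap the others. The labels do not say what the first pools share, and what part it has in the levels was not tested.

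The genotype difference of TAGL1 was close to 0. Its log2 fold change was -0.06 (SE 0.321, edgeR adjusted p = 0.989; exact permutation p = 0.80, two-sided), with a 95% interval from -0.77 to 0.66, or a ratio of 0.585 to 1.58. Leaving out the first pool of either genotype moved the value to the side of the other: it was -0.38 without fw2.3-D replicate 1 and 0.30 without fw2.3-WT replicate 1. With both first pools left out it was -0.03 (edgeR adjusted p = 0.993).

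MBP3 had the widest fitted difference of the 3 tested members and also the widest error. Its pools stood at 1.56, 2.61 and 0.652 RPKM in fw2.3-D and at 0.666, 0.282 and 1.58 RPKM in fw2.3-WT, from 5 to 59 counts. The fw2.3-D replicates 1 and 2 and fw2.3-WT replicate 3 were at 1.56 RPKM or more, and the other 3 pools at 0.666 RPKM or less. Counting intervals reached across this gap, as for fw2.3-D replicate 1 (from 1.07 RPKM) and fw2.3-WT replicate 1 (to 1.14 RPKM). The log2 fold change was 0.96 (SE 0.656, edgeR adjusted p = 0.948; exact permutation p = 0.30, two-sided). Its 95% interval, -0.51 to 2.42, spans a ratio of 0.703 to 5.36, so neither equal levels nor a rise of several fold lies outside it. The value moved with single pools. It was 0.44 when fw2.3-D replicate 2 was dropped, 0.56 when fw2.3-WT replicate 2 was, and 1.74 when fw2.3-WT replicate 3 was. Only the last had an unadjusted p under 0.05 (0.0435, edgeR adjusted p = 0.983). Dropping any other pool gave 0.83 to 1.33, and the value stayed above 0 under all 16 alternatives.

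Within each genotype, the highest and the lowest MBP3 pool differed by more than their counting intervals, which leave out the differences between plants. The 95% Poisson interval of fw2.3-D replicate 2 (1.98 to 3.36 RPKM) lay above that of fw2.3-D replicate 3 (0.347 to 1.12 RPKM). In the other genotype the interval of replicate 3 (1.06 to 2.25 RPKM) lay above that of replicate 2 (0.0917 to 0.659 RPKM). The biological coefficient of variation that edgeR estimates was 0.511 for MBP3 and above that of 93.7% of the 1357 tested genes of a like level (within 0.5 log2 CPM). For TAGL1 it was 0.280, above 92.2% of 2326 genes of a like level, and for TAG1 0.135, above 62.3% of 3820. In absolute log2 fold change, against the same sets, MBP3 was above 92.9%, TAGL1 above 19.1% and TAG1 above 0.262%.

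AGL11 did not pass the filter on low counts and has no value in the test used for the other genes. In fw2.3-D its pools had 8, 11 and 2 counts, or 0.469, 0.585 and 0.121 RPKM. The fw2.3-WT pools had 0, 4 and 5 counts, or 0, 0.272 and 0.316 RPKM, and the genotypes overlapped. Summed, these are 21 counts in fw2.3-D and 9 in fw2.3-WT, a ratio of mean CPM of 2.06. Without a filter on low counts edgeR gave a log2 fold change of 1.02 (adjusted p = 0.919), and DESeq2 gave 1.04 (adjusted p = 1.00). The exact permutation p was 0.40, two-sided. None of these tests passed. The same 3 pools were highest for AGL11 and for MBP3, fw2.3-D replicates 2 and 1 and fw2.3-WT replicate 3. Most counting intervals of AGL11 overlap, so its order of pools is uncertain.

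**Figure D3:**
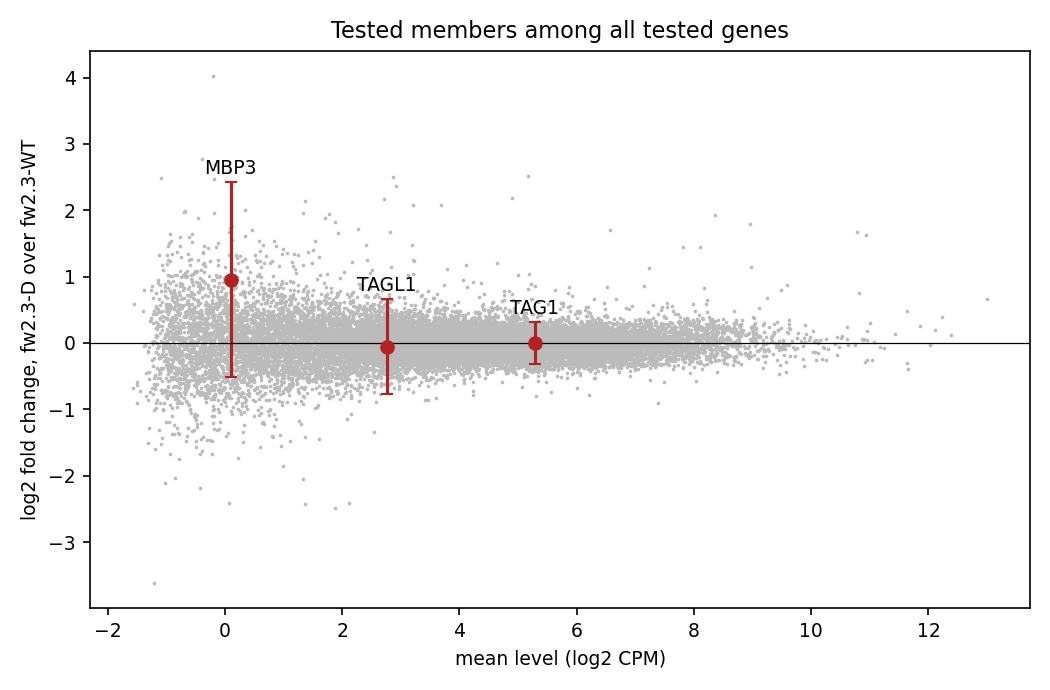
Log2 fold change (fw2.3-D over fw2.3-WT) against mean level (log2 CPM) for 20942 tested genes (grey) and the 3 tested members (red, with 95% intervals). The interval widens from TAG1 to TAGL1 to MBP3 as the level falls, and each includes 0.

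Whether the 4 genes moved together over pools cannot be decided from 6 pools. Pearson correlations of log2 CPM between members ran from -0.425 (TAGL1 and AGL11) to 0.575 (TAG1 and TAGL1) over 6 pools that share their depth and scaling, and with 30 counts for AGL11 in all such values are no finding. Against 24 genes of the other lists, TAG1 was most like Solyc02g089200.4 of the SEPALLATA clade (r = 0.935, n = 6 pools). TAGL1 was most like Solyc01g093960.3 of the AGL6 clade (r = 0.904), and MBP3 most like Solyc04g005320.3 of the SEPALLATA clade (r = 0.847). AGL11 was most like Solyc02g064960.3, an APETALA2 homologue by locus number (r = 0.794). Of all genes at 1 CPM or more, the most alike were Solyc01g110360.3 for TAG1 (r = 0.997), Solyc07g065080.4 for TAGL1 (r = 0.996), Solyc02g021140.3 for MBP3 (r = 0.997) and Solyc12g042700.3 for AGL11 (r = 0.982). Over 6 pools, r was above 0.9 with TAG1 in 0.898% of the genes searched, with TAGL1 in 2.02%, with MBP3 in 1.92% and with AGL11 in 0.227%. The most alike genes were picked from 24 genes of the lists or from 19386 or 19387 of all genes, and their r carries no test.

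The other genes of the pathway gave 0 calls as well. Of 28 genes tested over all lists, members included, edgeR called 0, DESeq2 called 0, and an unadjusted p under 0.05 was seen in 0. The 4 B-class genes had fitted values above 0, with a median log2 fold change of 0.10, where the median of all tested genes was 0.00083. In the SEPALLATA and AGL6 clades 6 of 7 were above 0 (median 0.05), and in the AP1/FUL clade 5 of 5 were below 0 (median -0.25), where 50.2% of all tested genes were above 0 and 49.8% below. Homologues of LEAFY, UFO, WUSCHEL and APETALA2, which act upstream of AGAMOUS in Arabidopsis, had 3 of 6 above 0 (median -0.01, range -0.23 to 0.18). Both CRABS CLAW-type genes were above 0, at 0.10 (SE 0.199) and 0.22 (SE 0.192). None of these values passed the test, with edgeR adjusted p of 0.948 or more. Genotypes were without overlap in 1 gene of the AP1/FUL clade and in 1 of the upstream homologues, against 9.49% of all tested genes. The summed level of the 5 AP1/FUL genes was 151 to 175 RPKM in the fw2.3-D pools and 184 to 197 RPKM in the fw2.3-WT pools. Its largest part was Solyc05g056620.2, at a mean of 99.7 RPKM. Summed levels of every other list overlapped between genotypes, as for the B-class genes (422 to 545 RPKM in fw2.3-D, 434 to 480 RPKM in fw2.3-WT). The sums were not tested, and no share of like sums over all genes is at hand.

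**Figure D4:**
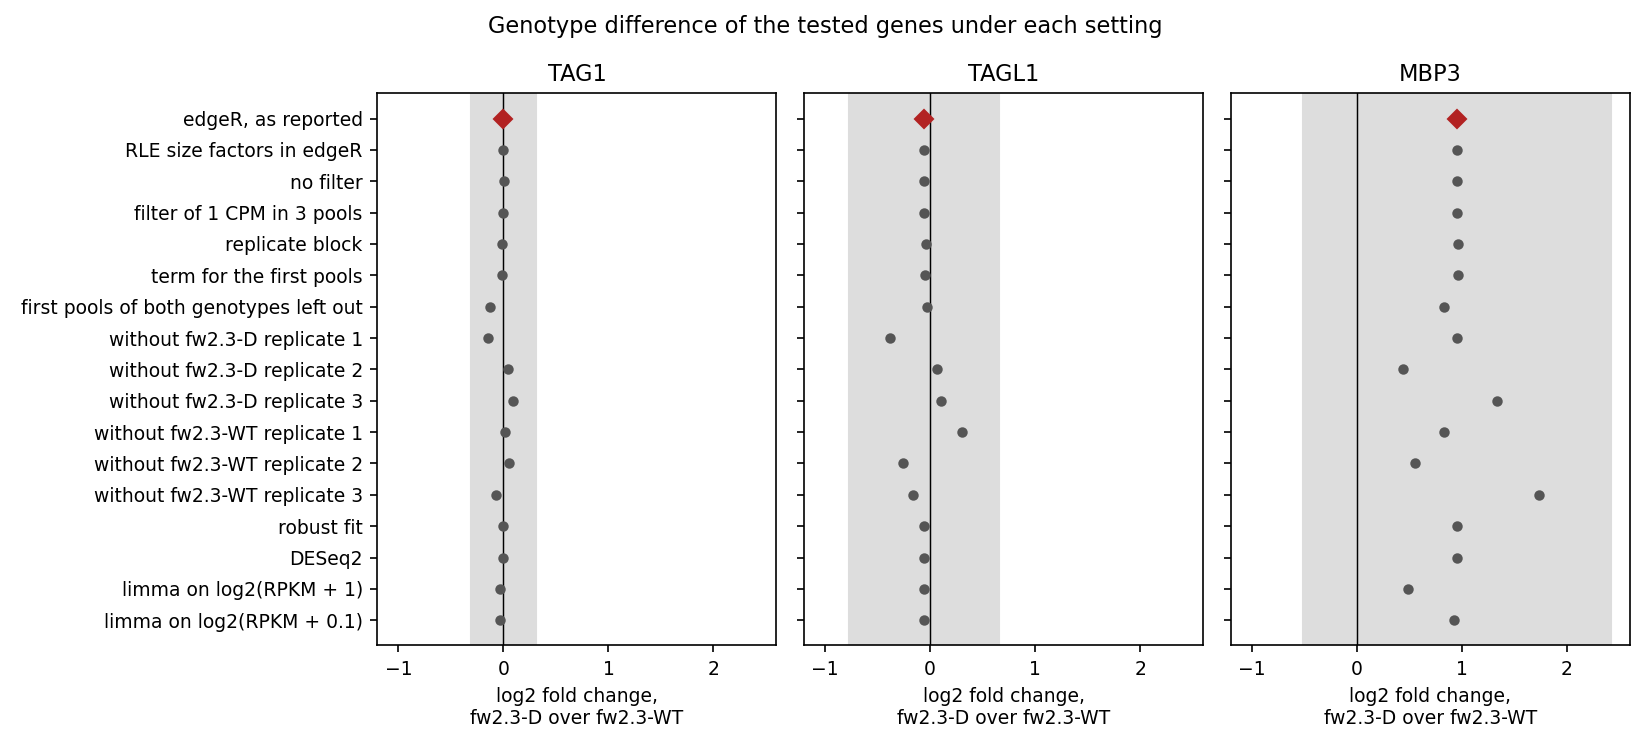
Log2 fold change of the 3 tested members as reported (red diamond, edgeR) and under 16 other settings (grey points), with the 95% interval of the reported value shaded. TAG1 runs from -0.143 to 0.0904 and TAGL1 from -0.38 to 0.30, both changing sign, while MBP3 runs from 0.44 to 1.74.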

How the data were processed

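Polyadenylated RNA of 6 pools was sequenced from libraries that did not keep strand, so reads of genes that overlap on opposite strands cannot be separated. The deposited counts are whole numbers of reads per gene, not normalized. The deposited RPKM table scales them to gene length and to the total: a single whole-number gene length, within 0.01%, fitted all pools in 24593 of the 24595 rows that could be compared. Cutadapt, STAR and edgeR are named, without roles, in the submitters' processing notes; how reads were counted, and what was done with reads that map to more than 1 gene, is not given in the sources used here, so the division of reads between related MADS-box genes is uncertain. Levels are the authors' RPKM.

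Genes were tested with the quasi-likelihood functions of edgeR 4.0.16 in R 4.3.3. Settings were TMM factors, filterByExpr with a minimum count of 10, and genotype as the only term. The p-values were adjusted by Benjamini-Hochberg over all tested rows. The method was also run on simulated data with independent pools. Such data lack the likeness of the first pools, so they cannot show how the test holds here. Standard errors were derived from the log2 fold change and its F statistic, and intervals are at 95%. Alternatives were DESeq2 1.42.0, RLE factors, other filters, a robust fit, the replicate block, a term for the first pools, each pool or both first pools left out, and limma 3.58.1 on log2(RPKM + 1) and log2(RPKM + 0.1). Pools are described as separate plants, so p-values reflect the spread between pools.

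The members, lists, rules and alternatives were chosen with earlier results of these data known. The files pair no names with identifiers: lists other than the members were filled by locus number from published assignments as remembered, which could not be checked by identifier. By rule, all members were named, with the most alike gene of each over all genes at 1 CPM or more and over the lists; other genes are given by range. Sequences were not used here.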

Additional observations from a re-analysis of the deposited data

How the results depend on the processing

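None of the 3 tested members was called under any of 16 alternatives each (adjusted p from 0.679 to 1.00), and AGL11 passed in neither fit that could test it. The value of TAG1, close to 0, changed sign under several settings: RLE factors gave -0.0056, a minimum of 1 CPM in 3 pools -4.7e-05, the replicate block -0.0088, adding the first-pool term -0.0106, dropping both first pools -0.13, DESeq2 -0.0058, and limma -0.0297 at a pseudocount of 1 and -0.0307 at 0.1. Leaving out one pool at a time gave -0.143 to 0.0904 for TAG1, -0.38 to 0.30 for TAGL1 and 0.44 to 1.74 for MBP3. For AGL11 the log2 ratio of mean CPM, an alternative with no test added after seeing the data, then lay between 0.46 and 1.55. Over the whole table, the 5 calls became 13 with no filter, 10 under the replicate block, 13 on adding the first-pool term, 21 on dropping both first pools, 48 with DESeq2, and 0 with limma at either pseudocount (774 and 746 genes at an unadjusted p under 0.05). One pool fewer gave 0 to 18 calls. The cause was not tested. The labels state no pairing of pools by replicate number. Same-numbered pools had correlations of their deviations of 0.337 (replicate 1), -0.0623 (replicate 2) and 0.051 (replicate 3). These values are too few to decide whether same-numbered pools were handled together. The block changed no call of a member. No setting moved the median of all genes by more than 0.1. Counting error alone gives a coefficient of variation of 44.7% for AGL11 (30 counts over 6 pools), 19.9% for MBP3 (152) and 3.21% for TAG1 (5838), where the pools had 73.4%, 70.0% and 9.90% in RPKM.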
